A study of Mus musculus with 27 samples.

Results

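Mouse bone marrow-derived macrophages (BMDMs) that had met lipopolysaccharide (LPS) a second time were compared with BMDMs that had met Poly(I:C) a second time. The comparison rests on 5 of the 27 arrays of the series, chosen by their labels: 2 arrays of LPS re-stimulated cells and 3 of Poly(I:C) re-stimulated cells. Of the 55681 probes with a normalized value, 25699 were tested, namely those whose spots stood well above local background on 2 or more arrays of LPS or of Poly(I:C) cells. The labels name another LPS re-stimulated culture, replicate 3, but the authors left its array out of their normalized table, and it enters no value below unless it is named. Macrophages were grown for 7 days in L929 conditioned medium from the marrow of female C57BL/6 mice aged 6 to 8 weeks. Re-stimulated cells received 100 ng/ml LPS or 10 µg/ml Poly(I:C) for 24 h, were washed, rested in fresh medium, and received the same ligand again for 4 h. CpG (DNA that TLR9 recognizes, labelled as 100 µM, where the methods give a lower dose) and Pam3CSK4 (a lipopeptide that TLR2 recognizes, at 100 ng/ml) were given to other re-stimulated cells by the same schedule. Naive cells received no ligand and acute cells a single exposure of 4 h. Levels in all these groups are given for orientation, with no test. The acute LPS arrays lay on slides 4 to 6, were read on other days and carried another grid name. For them the exposure and these differences cannot be told apart. Cells taken at the end of the first exposure of 24 h are not among the arrays used here. What was left from that exposure and what the second one added therefore cannot be told apart. Replicates are described by the study both as single mice and as independent pools of marrow. All values are from RNA of whole cultures, in which fewer cells of a type and less RNA per cell cannot be told apart.

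LPS, a component of the outer membrane of Gram-negative bacteria, is recognized by TLR4 on the cell surface, which signals through the adapter MyD88 and, once taken up, through TRIF. Poly(I:C), a synthetic duplex of an inosine strand and a cytidine strand that stands for viral double-stranded RNA, is recognized by TLR3 in endosomes, which uses TRIF alone, and by sensors in the cytosol. MyD88 leads mainly to NF-κB and inflammatory cytokines, whereas TRIF also leads to IRF3, interferon-β and, through the interferon receptor, to a large set of antiviral genes. After a first exposure macrophages answer the same ligand differently, with some genes muted (tolerance) and others still inducible.

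The 5 arrays were read on the same day. LPS replicates 1 and 2 and Poly(I:C) replicates 1 and 2 shared slides 1 and 2, whereas Poly(I:C) replicate 3 was the only array of the comparison on slide 3. This array stood apart from the other Poly(I:C) arrays. Across all probes, replicates 1 and 2 of Poly(I:C) correlated at r = 0.986 and the LPS arrays at 0.988, but Poly(I:C) replicate 3 correlated at 0.965 and 0.963 with its own group and at 0.972 and 0.961 with LPS replicates 1 and 2. The share of probes well above background was between 43.6% and 48.6% on the 5 arrays. Macrophage identity was clear throughout, since 10 of 10 macrophage markers were well above background on every array and the log2 of their summed signal was 19.3 to 19.8.

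Transcripts of neutrophils set slide 3 apart. Slide 3 held replicate 3 of its groups, so slide and culture cannot be told apart here or below. Of 10 neutrophil markers, 5 were well above background on all 5 arrays and none was missing from every array. The log2 of their summed signal was 13.9 and 14.4 on the LPS arrays, 14.1 and 14.9 on Poly(I:C) replicates 1 and 2, and 11.8 on Poly(I:C) replicate 3. Ngp, a neutrophil granule protein, read 9.71 and 9.0 with LPS against 10.53, 11.55 and 3.15 with Poly(I:C), so that the slide 3 array alone was low. The same fall was present on slide 3 in naive cells, where the summed signal was 13.9, 14.2 and 12.1 on slides 1, 2 and 3. Not every marker fell in every group. On slides 1, 2 and 3, Elane read 12.29, 12.23 and 11.83 in naive cells. Camp read 10.57, 10.65 and 10.79 in CpG re-stimulated cells. What part these transcripts have in the differences below was not tested, and the counts are given with and without Poly(I:C) replicate 3. Of the markers of other cells, 3 of 7 T cell, 3 of 5 B cell, 4 of 6 natural killer cell, 3 of 8 dendritic cell and 1 of 6 mast cell and basophil markers were well above background on no array. The summed signal of the last list was 7.71 and 5.80 with LPS against 7.78, 8.35 and 6.32 with Poly(I:C). That of the dendritic cell markers was 15.3 and 15.5 against 16.1, 15.4 and 15.5, nearly all of it from Siglech.

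**Figure D1:**
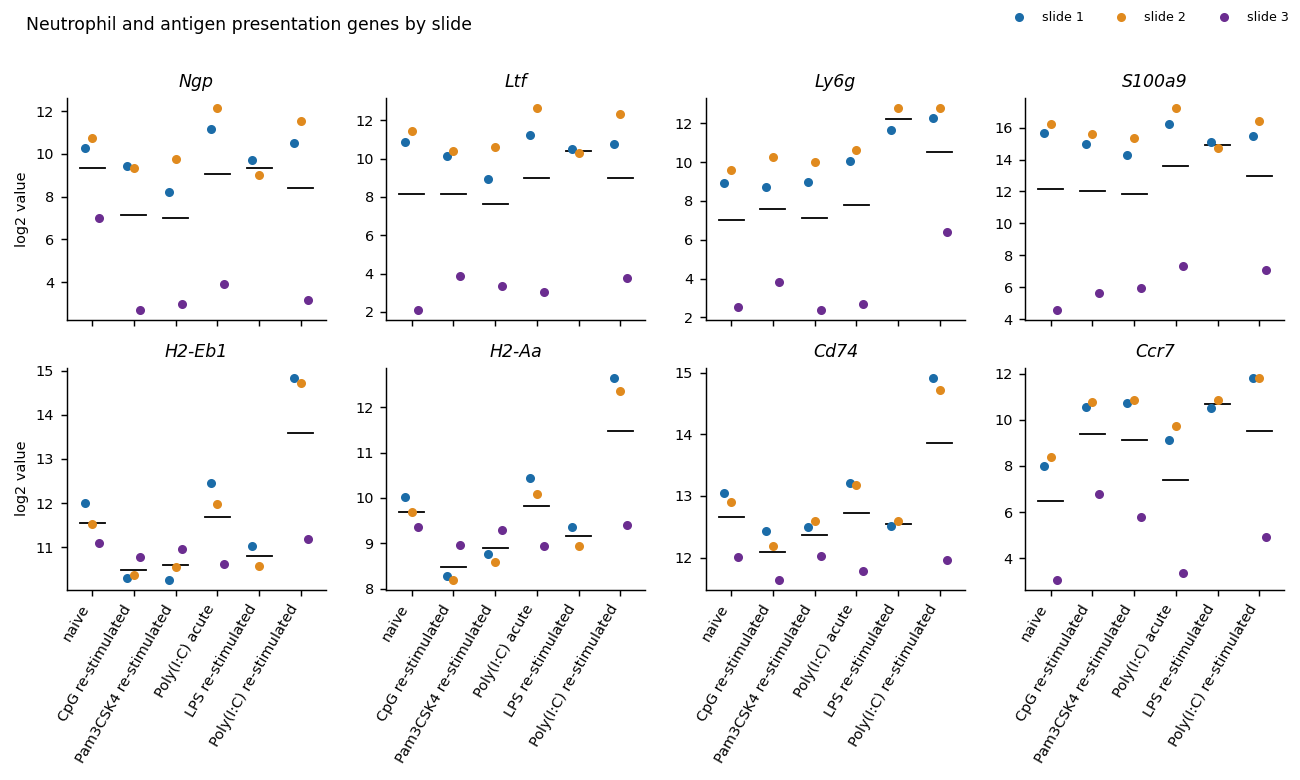
Log2 values of 4 neutrophil genes (top row) and 4 antigen presentation or migration genes (bottom row) on each array of 6 groups, coloured by slide, with black bars for group means. On slide 3 these 4 neutrophil genes, though not all neutrophil markers, were low in every group that has a slide 3 array. H2-Eb1, H2-Aa and Cd74 were high on Poly(I:C) re-stimulated replicates 1 and 2 and not on replicate 3.

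Differences are given as the log2 value with LPS minus that with Poly(I:C), so that positive numbers mean a higher level after LPS. A probe was called when limma's moderated test gave a Benjamini-Hochberg adjusted p under 0.05 over all 25699 probes and the groups differed by at least 1.5-fold. On this rule 246 probes (0.957%) were called, 141 higher with LPS (0.549%) and 105 higher with Poly(I:C) (0.409%). Before adjustment, p was under 0.05 for 3305 probes (12.9%), and after it the lowest p was 0.0266. Over all tested probes the median difference was 0.04. The count depended on which arrays entered the fit. Without Poly(I:C) replicate 3, 24814 probes were tested. Of these 728 were called higher with LPS and 833 with Poly(I:C), and all 246 calls were among them. Counts of gene list members called in that fit stand beside these counts over all probes. Without LPS replicate 1, LPS replicate 2 or Poly(I:C) replicate 2 no probe was called (2680, 1792 and 2857 had an unadjusted p under 0.05), and without Poly(I:C) replicate 1 the counts were 13 and 33. With the slide as a term in the model 703 and 849 probes were called. Non-overlap of the groups was common among all probes tested, at 8225 (32.0%). Calls also depended on the other groups fitted alongside: in 1 fit over all 9 groups of the series 272 and 269 probes were called, of which 94 were among the 246.

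Most of the called probes shared a feature of their own sequence, found after the differences had been seen. Of the 141 probes higher with LPS, 121 (85.8%) held the letters GTGTGT, against 844 (3.28%) of all probes tested. Of the 105 probes higher with Poly(I:C), 20 (19%) held a run of G (GGGGG or GGGGAGGG), against 760 (2.96%) of all probes tested, and 15 (14.3%) began with CCCCC, against 53 (0.206%). A run of G was also held by 4 probes called higher with LPS. The sequences below show the feature in examples of each kind, as windows of 30 of the 60 bases, written 5′ to 3′, with the repeat or run in capitals. Probe positions were taken from the array files (mm9), which do not say which part of a transcript a probe lies in.

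Probes higher with LPS, each with a TG repeat, are those of Cd300a, an inhibitory receptor of myeloid cells (chr11:114765539-114765598), Elavl4, a neuronal RNA-binding protein (chr4:109877455-109877514), Slc1a4, a transporter of neutral amino acids (chr11:20202615-20202674), Cxcl5, a chemokine (chr5:91190490-91190549), and Tnfrsf9, the costimulatory receptor 4-1BB (chr4:150319582-150319641).
Cd300a: tagatgggtgtaTGTGTGTaTGTGTGTatg
Elavl4: gtccttctgtTGTGTGTGTGTatgtgtaca
Slc1a4: atgtatcaaGTGTGTGTGTGTaTGTGTGTG
Cxcl5: tagatgtctgtaGTGTGTcttttaaagagt
Tnfrsf9: taaaatcaGTGTGTGTGTGTGTGTGTGTGT

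Probes higher with Poly(I:C) and holding a run of G are those of Serpinh1, a collagen chaperone (chr7:106493971-106494030), Celf3, an RNA-binding protein (chr3:94295991-94296049), Tbx21, the transcription factor T-bet (chr11:96959417-96959476), and Cacna1h, a calcium channel subunit (chr17:25511235-25511294).
Serpinh1: GGGGAGGGGaaatatgagcctttgttgctt
Celf3: gggtGGGGAGGGtaaaggataagaaGGGGG
Tbx21: gaGGGGGGaggctatttattgtagagagtg
Cacna1h: aaagctaaGGGGAGGGGAGGGGcaaagcaa

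Probes higher with Poly(I:C) that begin with C bases are those of Isl1, a homeobox factor (chr13:117088774-117088833), Il5, the eosinophil growth factor (chr11:53538468-53538527), and Prdm11, a PR domain protein (chr2:92826390-92826449).
Isl1: CCCCCaaagatgtgtatagttattggttaa
Il5: CCCCCagtttactccaggaaaaacagatgt
Prdm11: CCCCCagaaccagccccaatacggactacc

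The difference followed the length of the TG stretch. Probes whose longest stretch of alternating T and G was 3 letters or less, 4 to 5, or 6 to 7 had median differences of 0.04, 0.02 and 0.04. With 8 to 9 letters (146 probes) the median was 0.41 and 15 probes were called higher with LPS, with 10 to 13 (91 probes) it was 1.54 and 38 were called, and with 14 or more (91 probes) it was 1.62 and 59 were called. Of the 259 tested probes with GTGTGTGT, 240 were higher and 19 lower with LPS. Probes with the complementary letters ACACACAC (98 probes) had a median of -0.70, and 74 of them were higher with Poly(I:C). Of these 98 probes, 6 were called higher with Poly(I:C) and 1 with LPS. Over all 760 probes with a run of G the median was only -0.09, with 328 higher and 432 lower with LPS. For the 89 of them with GGGGAGGG the median was -2.14, and 14 were called higher with Poly(I:C). A run of C mattered by its place: the 53 probes that begin with CCCCC had a median of -1.06 and 15 calls, whereas the 924 probes with CCCCC elsewhere had a median of 0.11 and 3 calls.

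**Figure D2:**
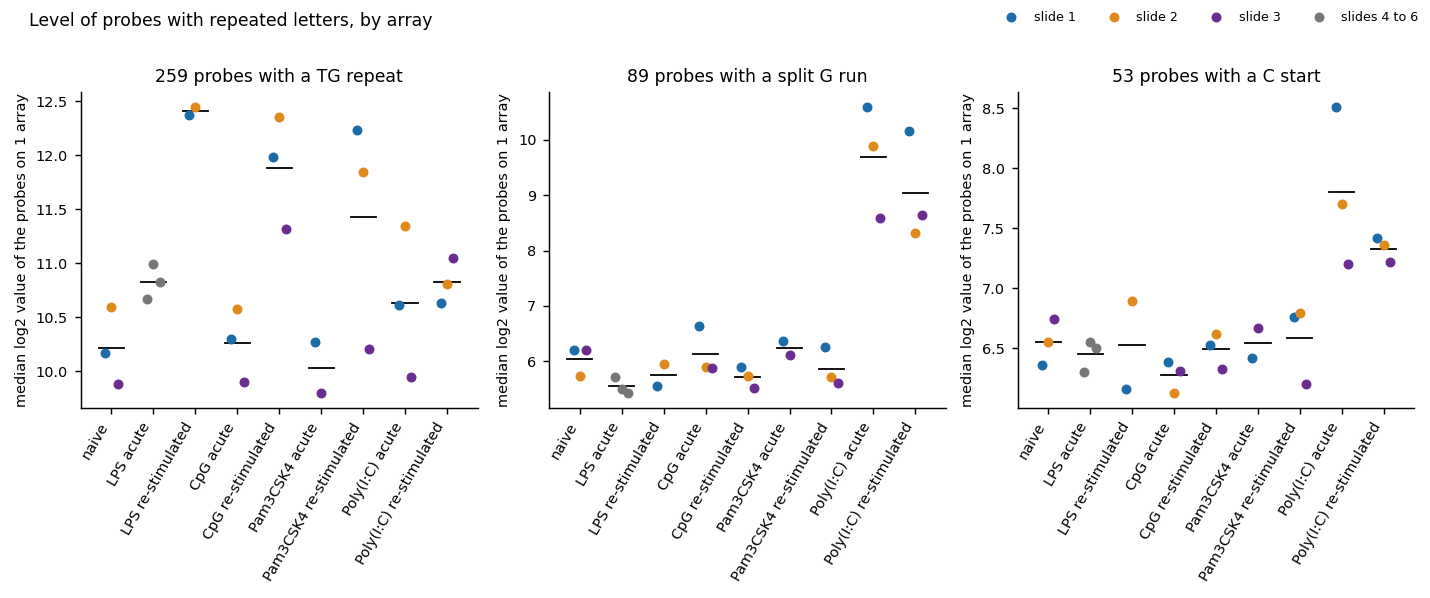
Median log2 value on each array of all tested probes with a TG repeat (GTGTGTGT, 259 probes), with a split G run (GGGGAGGG, 89 probes) and with CCCCC as the first letters (53 probes), for the 9 groups of the series, coloured by slide, with black bars for group means. The TG probes were highest in LPS re-stimulated cells, at 12.4 on both arrays, and the G and C probes in Poly(I:C) acute and re-stimulated cells.

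The classes also moved in other groups, on the same probes. The 108 called probes with GTGTGTGT had median levels of 14.97 and 14.92 on the LPS re-stimulated arrays and 12.12, 12.27 and 12.59 on the Poly(I:C) re-stimulated arrays. They read 13.75, 14.63 and 13.02 in CpG re-stimulated cells, 14.44, 13.76 and 11.01 in Pam3CSK4 re-stimulated cells, and 11.15, 11.85 and 10.23 in naive cells. The lower level with Poly(I:C) was therefore still above that of naive cells on each slide. The 20 called probes with a G run had median levels of 4.11 and 4.06 on the LPS re-stimulated arrays and of 11.07, 8.80 and 9.34 with Poly(I:C) re-stimulation. In Poly(I:C) acute cells they read 11.54, 10.76 and 9.17, and on the arrays without Poly(I:C) between 3.53 and 5.50. The 15 called probes with a C start read 4.15 and 4.40 with LPS against 6.83, 6.54 and 6.19 with Poly(I:C). High levels of both classes were thus found on the 6 arrays of cells given Poly(I:C) and on no other.

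Other probes of the same genes, where such probes were tested, did not share these differences. Of the 92 named genes with a called TG probe, 18 had another tested probe without a run. Of these 23 probes 0 were called, and their median difference was -0.15. The called TG probes of these genes had a median of 2.58, counted once for each other probe. For G runs and C starts only 2 of 17 and 2 of 10 named genes had another tested probe, and 0 of those were called. The Elavl4 probe with the repeat read 13.98 and 13.70 with LPS against 8.89, 9.17 and 10.47 with Poly(I:C), a difference of 4.33 (SE 0.50, adjusted p = 0.0382). A run-free Elavl4 probe (chr4:109878558-109878617) read 2.56 and 3.73 against 2.74, 4.71 and 4.43, with groups that overlapped. These readings were low, near the medians of all probes on the LPS arrays (4.03 and 4.06) and Poly(I:C) arrays (4.03, 4.04 and 4.04). That limits what this probe can show. Cacna1h with the G run read 4.39 and 5.73 against 11.92, 9.91 and 10.13 (-5.59, SE 0.73, adjusted p = 0.0451), and its run-free probe (chr17:25569818-25569877) 5.34 and 5.21 against 5.59, 5.09 and 5.02. Prdm11 with the C start differed by -2.43 and its run-free probe (chr2:92815094-92815153) by 0.07. In Tnfrsf9 the repeat probe differed by 2.78 and the run-free probe (chr4:150319101-150319160) by -0.35. The latter probe also read low, at 3.56 and 5.58 with LPS against 5.23, 6.22 and 3.30 with Poly(I:C). The run-free windows are shown for comparison, in lower case throughout.
Elavl4, run-free: ctttaccaccttccttgaaggtgggtcttt
Cacna1h, run-free: cttcttctgcctcgggcaaaccacgcggcc
Prdm11, run-free: taaaatatgtcccatttgcaggagggctgt
Tnfrsf9, run-free: cgcgcacctcatccaagtctcttctaacgc

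**Figure D3:**
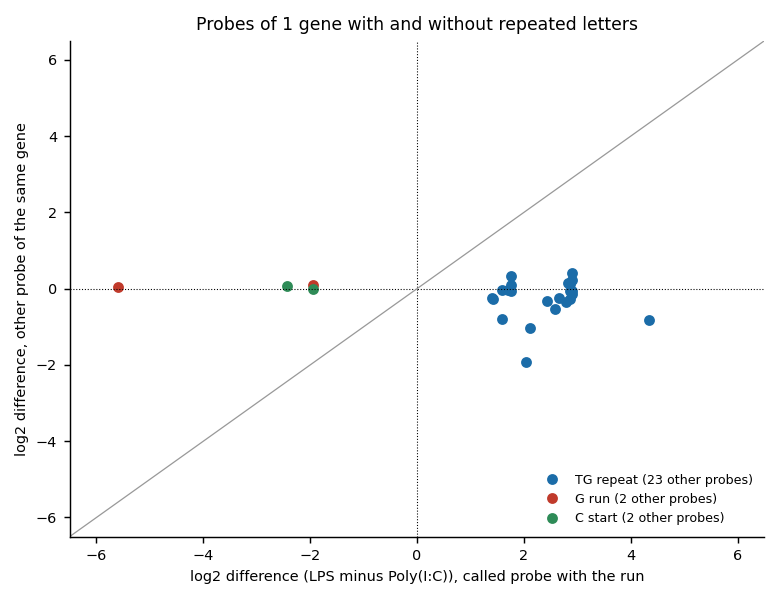
Log2 difference (LPS minus Poly(I:C)) of called probes with a TG repeat, a G run or a C start (horizontal axis) against that of other tested probes of the same gene without such letters (vertical axis), with the line of equality. The other probes lay between -1.92 and 0.40 while the called probes reached 4.33 and -5.59.

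The letters of a probe are therefore named beside its result. Of the 24 genes with the largest called differences that met the naming rule, 8 of the 12 higher with LPS held GTGTGT and all 12 higher with Poly(I:C) held a run of G. The latter were Serpinh1, Gm106, Gm11202, Celf3, ENSMUST00000154878, Hspbap1, Sez6l, TC1611989, Tbx21, Gpr124, Cacna1h and B4galt2, of which 8 were well above background on no LPS array, so that their differences are lower bounds, from at least 48.1-fold to at least 103-fold. Serpinh1 read 2.67 and 2.64 with LPS, not well above background, against 10.66, 8.41 and 8.94 with Poly(I:C), which is at least 103-fold higher (SE 0.67 on the log2 scale, adjusted p = 0.0326). Higher with LPS and holding the repeat were, among others, Cxcl5, Cd300a, Elavl4, TC1648127, Pycr1, Slc1a4 and LOC668917, from 6.49 to 3.32. Without the 3 classes of letters, which do not include AC repeats, 86 called probes remain, 19 higher with LPS and 67 with Poly(I:C). Their calls rest on the adjustment over all probes: with the 24068 probes of no class tested alone, 0 probes were called, 2821 had an unadjusted p under 0.05 and the smallest adjusted p was 0.0849.

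Among probes without a run, Arg1, the arginase that splits arginine into ornithine and urea, showed the largest difference of the named genes. It read 11.63 and 11.54 with LPS and 3.56, 3.69 and 6.43 with Poly(I:C), where it was well above background on 1 of 3 arrays. The groups did not overlap, with Poly(I:C) replicate 3 between them. The difference was 7.02 (SE 0.91, 95% interval 4.75 to 9.30, adjusted p = 0.0450). Naive cells read 2.72 to 3.18 and acute LPS cells a mean of 2.22, and in CpG and Pam3CSK4 re-stimulated cells the means were 10.2 and 9.49. Its probe lies at chr10:24636194-24636253 (mm9) and the probe holds no repeat or run.
Arg1: aactctgggaattaagtatttctccatgac

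Of the 11 tested genes of arginine, nitric oxide and itaconate metabolism Arg1 was the only one called over 5 arrays, and the median difference was 0.28. Slc7a2, an arginine transporter, read 11.70 and 11.34 with LPS against 10.0, 10.49 and 9.97 with Poly(I:C) (1.37, adjusted p = 0.0972). Kynu, an enzyme of tryptophan breakdown, read 4.54 and 5.13 against 7.80, 8.57 and 4.41, and was called higher with Poly(I:C) without replicate 3 (adjusted p = 0.551 and 0.0133 in the 2 fits). Nos2, the inducible nitric oxide synthase, read 13.37 and 13.78 against 13.58, 14.02 and 11.59, with overlapping groups (0.51, adjusted p = 0.825). Irg1, which makes itaconate, read 17.6 to 17.8 with LPS and 17.3 to 17.6 with Poly(I:C) (0.28, 95% interval -0.20 to 0.76).

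Among 6 CXC chemokines, most of which draw neutrophils through the receptor CXCR2, 2 were called higher with LPS over 5 arrays and 5 without Poly(I:C) replicate 3. The groups of all 6 did not overlap, against 32.0% of all probes, and the median difference was 4.00. Ppbp, whose product is cut to a CXCR2 ligand, read 6.92 and 6.99 with LPS against 2.64, 3.46 and 2.96 with Poly(I:C), where it was well above background on no array. It was at least 15-fold higher with LPS (3.94, SE 0.28, adjusted p = 0.0266), and its probe (chr5:91198970-91199029) holds no run. Naive cells read 5.69, 5.59 and, on slide 3, 2.00, and acute Poly(I:C) cells 4.59, 5.69 and 2.26. On slides 1 and 2 the level with Poly(I:C) re-stimulation thus lay below that of naive cells and the level with LPS above it.
Ppbp: ctggtcatgaccatgtttttccaatttctt

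Cxcl5, which neutrophils also follow through CXCR2, read 8.86 and 10.15 against 2.74, 3.58 and 2.71, at least 90.1-fold higher (6.49, SE 0.48, adjusted p = 0.0266), on a probe with a single GTGTGT. Cxcl3 read 14.16 and 15.24 against 10.43, 11.99 and 9.52 (4.06, adjusted p = 0.105). Cxcl1 read 12.50 and 13.20 against 8.02, 7.54 and 10.66 (4.11, adjusted p = 0.157), and in naive cells 4.22, 5.73 and, on slide 3, 9.10. Cxcl2 differed by 2.54 (adjusted p = 0.198). The last 3 were called without Poly(I:C) replicate 3, at adjusted p of 0.0458, 0.00798 and 0.0273. Pf4, the platelet chemokine, differed by 1.84 and was called in neither fit (adjusted p = 0.468 and 0.105).

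Promoters of this list were searched for a core of NF-κB sites (GGGA, any 2 bases, TTCC) from 250 bases before to 50 after the start in RefSeq (GRCm38.p6), on both strands. It was found in 3 of 5 promoters, of Cxcl1, Cxcl2 and Cxcl3, and in 1.47% of all 32851 promoters. Of the chemokines called over 5 arrays, Ppbp had no match and for Cxcl5 no promoter was available. Among genes called higher with LPS on probes outside the letter classes, 1 of 14 promoters held the core. Of the promoters of inflammatory cytokines 2 of 17 held it, and none was found upstream of Il1b. The core was also found in 2 of 11 promoters of interferon-inducible GTPases and 3 of 34 of antiviral effectors, lists whose medians were higher with Poly(I:C). The windows of 80 bases upstream of these starts lie on the forward strand at chr5:90891139-90891218, chr5:90903767-90903846 and chr5:90785993-90786072, with the matches in capitals (2 matches overlap in each, on opposite strands).
Cxcl1: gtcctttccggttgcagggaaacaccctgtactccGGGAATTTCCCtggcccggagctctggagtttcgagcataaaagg
Cxcl2: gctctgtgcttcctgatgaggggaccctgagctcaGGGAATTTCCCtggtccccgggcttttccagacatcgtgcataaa
Cxcl3: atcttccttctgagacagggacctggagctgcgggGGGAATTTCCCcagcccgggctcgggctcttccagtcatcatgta

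Of 22 inflammatory cytokines 0 were called with 5 arrays, and the median was -0.22. Without Poly(I:C) replicate 3, 3 were called higher with LPS and 5 with Poly(I:C), and the median was 0.49. The 3 higher with LPS belong to the interleukin-1 family. Il1b, the main secreted form, read 15.57 and 16.13 with LPS against 11.05, 11.91 and 13.50 with Poly(I:C) (3.70, SE 0.72, adjusted p = 0.111). Il1a read 10.44 and 10.51 against 6.86, 7.22 and 9.0 (2.78, adjusted p = 0.158). Il1f6, an IL-36 cytokine, read 9.06 and 9.26 against 7.23, 7.51 and 6.28 (2.15, adjusted p = 0.0965). In each the groups did not overlap. The adjusted p without Poly(I:C) replicate 3 were 0.00954, 0.00757 and 0.0159.

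Other genes called higher with LPS on probes without a run included Plxdc2, a transmembrane protein with a plexin domain. It read 13.65 on both LPS arrays against 10.11, 10.07 and 9.46 (3.77, SE 0.26, adjusted p = 0.0266), while naive cells read 15.41, 15.61 and 10.79, so the level with Poly(I:C) lay below that of naive cells on each slide. Cd38, an enzyme that consumes NAD, read 13.73 and 13.31 against 10.49, 10.88 and 11.18 (2.67, SE 0.28, adjusted p = 0.0345). 2010005H15Rik read 12.98 and 13.65 against 8.69, 10.19 and 8.83 (4.08, SE 0.52, adjusted p = 0.0441). None of these groups overlapped. In the fit over all 9 groups the adjusted p were 0.340, 0.133 and 0.223, and those of Cxcl5 and Ppbp 0.0578 and 0.130.

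Smaller calls were made for Itgb8, an integrin chain (at least 7.56-fold higher), Cacna1d, a calcium channel subunit whose 2 tested probes were both called, Pdgfrb, a growth factor receptor (2.59), Tm4sf1, a membrane protein (2.57), and Aldoc, an aldolase of glycolysis (2.33). Aldoc read 12.98 on average with LPS, near the 12.2 to 12.7 of naive cells, and 10.65 with Poly(I:C). Flt3, a dendritic cell marker, was at least 3.66-fold higher with LPS. Of the other dendritic cell markers, Zbtb46 read 5.67 and 5.78 with LPS against 6.71, 6.58 and 7.29 (-1.14, adjusted p = 0.160), and Ccr7 was called higher with Poly(I:C) without replicate 3 (adjusted p = 0.0448).

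**Figure D4:**
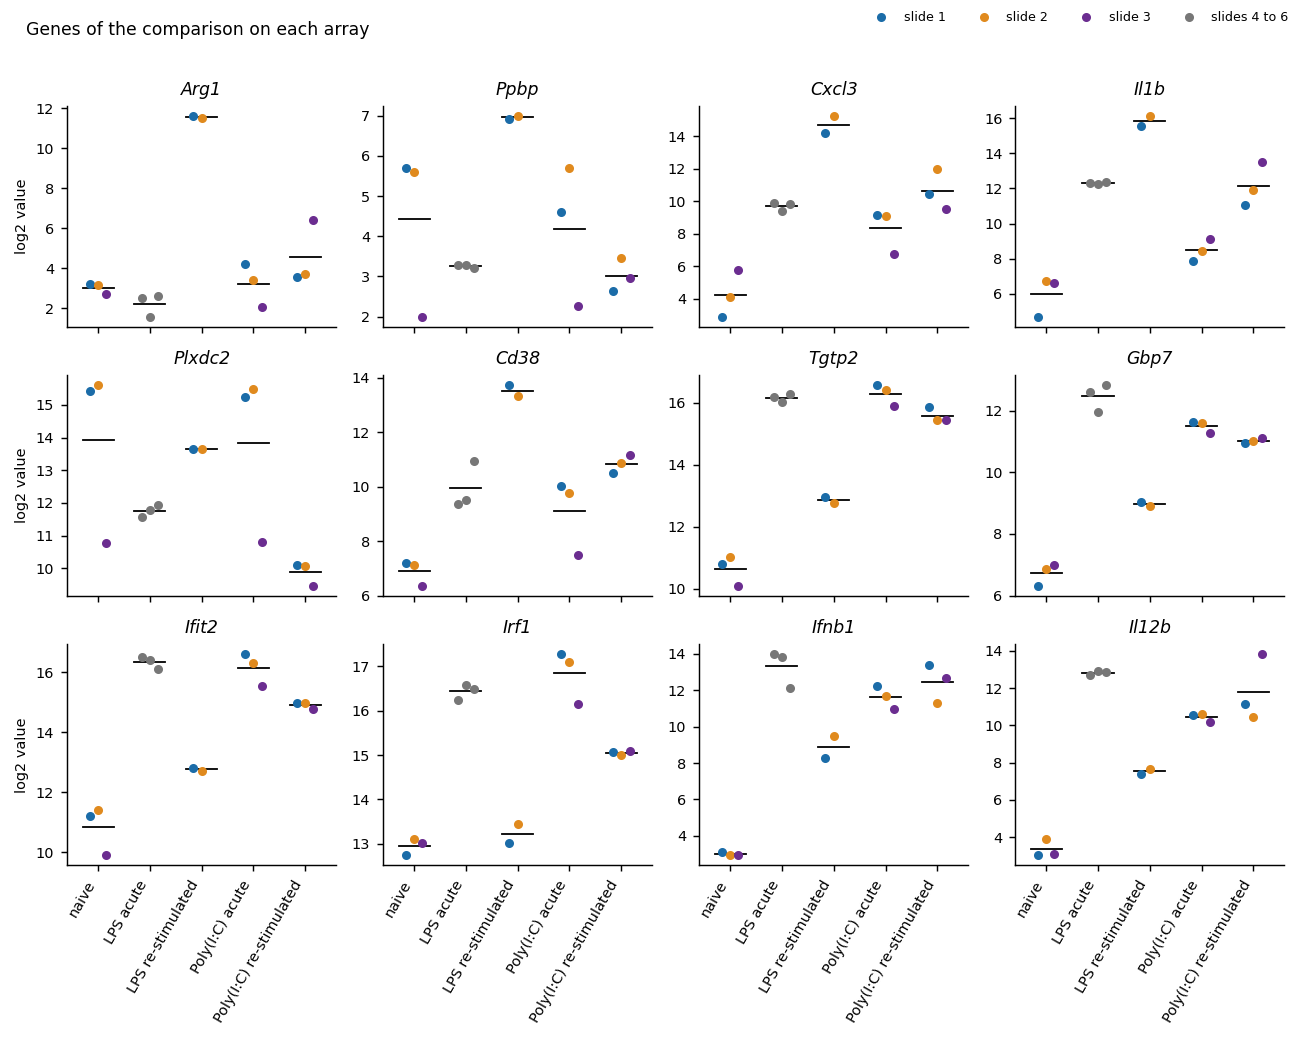
Log2 values of 12 genes on each array of naive, acute and re-stimulated cells, coloured by slide, with black bars for group means. Arg1, Ppbp, Cxcl3, Il1b, Plxdc2 and Cd38 were higher on both LPS re-stimulated arrays than on any Poly(I:C) re-stimulated array, and Tgtp2, Gbp7, Ifit2, Irf1, Ifnb1 and Il12b lower.

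Interferon-inducible GTPases are proteins that attack the vacuoles of intracellular microbes. Of 17 tested, 6 were called higher with Poly(I:C) and 0 with LPS, against 0.409% and 0.549% of all probes. In 15 the groups did not overlap, against 32.0% of all probes, and the median difference was -1.83. Without Poly(I:C) replicate 3 the number called was 15, where 833 of 24814 probes were called higher with Poly(I:C). None of their probes held a run. Tgtp2 read 12.94 and 12.77 with LPS against 15.85, 15.43 and 15.44 with Poly(I:C) (-2.72, SE 0.22, 95% interval -3.26 to -2.17, adjusted p = 0.0266). Naive cells read 10.1 to 11 and acute LPS cells, on other slides and days, a mean of 16.2. The LPS re-stimulated level lay between these values, but the acute exposure cannot be told apart from slide and day.

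Tgtp1, which is nearly identical to Tgtp2 and may share its signal, read 4.86 and 5.13 against 7.27, 7.55 and 7.69 (-2.51, adjusted p = 0.0267). Gbp7, a guanylate-binding protein, read 9.05 and 8.90 against 10.94, 11.02 and 11.12 (-2.06, SE 0.18, adjusted p = 0.0267). Of the immunity-related GTPases, Iigp1 differed by -1.93 (both of its tested probes were called), Igtp by -1.81 and Irgm2 by -1.79. Igtp read 12.90 and 12.74 against 14.71, 14.64 and 14.52, and Irgm2 11.63 and 11.91 against 13.64, 13.58 and 13.44. In all of these every Poly(I:C) array, that of slide 3 included, lay above both LPS arrays. Gbp2 (-1.87), Gbp3 (-2.15), Gbp4 (-2.37) and Ifi47 (-1.50) had adjusted p of 0.112, 0.0580, 0.337 and 0.0502, and were called without Poly(I:C) replicate 3.

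Of 38 antiviral effectors tested, 4 were called higher with Poly(I:C) and 0 with LPS (18 and 0 without Poly(I:C) replicate 3). Over all probes 0.409% were called higher with Poly(I:C). In 28 effectors the groups did not overlap with the higher level under Poly(I:C) and in 2 with LPS, where 32.0% of all probes did not overlap. The median was -0.89. Ifit3, which binds viral RNA together with its relatives, read 13.97 and 13.66 against 16.22, 15.86 and 16.45 (-2.36, SE 0.25, adjusted p = 0.0348). Ifit2 read 12.83 and 12.72 against 14.97, 14.97 and 14.78 (-2.13, SE 0.18, adjusted p = 0.0267). Cmpk2, a nucleotide kinase that lies beside Rsad2, differed by -1.99 (adjusted p = 0.0382, called on 1 of its 2 tested probes). Mx1, a GTPase that blocks viral replication, read 13.70 and 13.60 against 15.37, 15.24 and 15.60 (-1.75, SE 0.20, adjusted p = 0.0370).

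Just short of the threshold were Rsad2, which makes a chain terminator of viral RNA synthesis (-1.83, adjusted p = 0.0626), Usp18, which removes ISG15 from proteins (-1.33, adjusted p = 0.0635), Isg15 itself on a probe with a run of G (-1.31, adjusted p = 0.0728), and Ifit1 (-1.99, adjusted p = 0.0915). Ifitm1, which restricts viral entry, went the other way: it read 11.49 and 13.08 with LPS against 8.90, 9.84 and 7.42 with Poly(I:C), without overlap (3.57, adjusted p = 0.150).

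The 2 probe windows below are those of Tgtp2 (chr11:48871837-48871896) and Ifit2 (chr19:34650244-34650303), shown because neither holds a run.
Tgtp2: agaggattcatgctttcccttctcctgatc
Ifit2: tcatataaacatttatttcaagagtatgga

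Promoters were searched for the core of the interferon-stimulated response element (GAAA, any 2 bases, GAAA) on both strands in the same windows. It was found in 9 of 11 promoters of the GTPases (10 of the 17 genes had a RefSeq promoter in the table) and in 15 of 34 promoters of the antiviral effectors, against 3.44% of all promoters and 0 of 5 of the CXC chemokines. Of the 62 genes or unnamed transcripts called higher with Poly(I:C) on probes outside the letter classes, 31 had a promoter. Of their 42 promoters, 11 held it. No match was found for Ifit2, Cmpk2 and Irf1, which were called too. The windows lie at chr19:34583354-34583433 (Ifit3, forward strand), chr11:49064239-49064318 (Tgtp2, reverse), chr11:58199476-58199555 (Igtp, forward), chr11:58214877-58214956 (Irgm2, forward) and chr3:142530247-142530326 (Gbp7, forward) in GRCm38.p6, with matches to either strand in capitals. Such a match is a description of the letters and not evidence of a bound factor.
Ifit3: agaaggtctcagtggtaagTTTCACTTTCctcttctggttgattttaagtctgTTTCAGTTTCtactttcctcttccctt
Tgtp2: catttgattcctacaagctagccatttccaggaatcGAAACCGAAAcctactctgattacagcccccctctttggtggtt
Igtp: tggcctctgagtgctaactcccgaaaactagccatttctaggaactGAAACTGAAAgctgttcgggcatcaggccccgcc
Irgm2: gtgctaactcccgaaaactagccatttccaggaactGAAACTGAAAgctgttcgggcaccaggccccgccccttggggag
Gbp7: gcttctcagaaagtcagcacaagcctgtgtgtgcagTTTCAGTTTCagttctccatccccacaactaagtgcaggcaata

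Upstream of these genes, interferon-β itself showed a large but variable difference. Ifnb1 read 8.30 and 9.47 with LPS against 13.41, 11.31 and 12.69 with Poly(I:C), without overlap (-3.59, SE 0.69, 95% interval -5.32 to -1.86, adjusted p = 0.109). Without Poly(I:C) replicate 3 the adjusted p was 0.0746. In acute cells the means were 13.3 with LPS and 11.6 with Poly(I:C), and naive cells read 2.93 to 3.13, although the acute LPS arrays had slides and days of their own. The 8 interferon and receptor genes tested had 0 calls in both fits and a median of -0.04.

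Of 17 interferon signalling factors, 2 were called over 5 arrays and 6 without Poly(I:C) replicate 3, all higher with Poly(I:C), and the median was -0.48. Irf1, a transcription factor induced by both interferon and NF-κB, read 13.01 and 13.44 against 15.07, 15.01 and 15.09 (-1.83, SE 0.21, adjusted p = 0.0374), beside 12.7 to 13.1 in naive cells. Batf2, a partner of IRF1, read 10.63 and 10.40 against 13.33, 12.83 and 13.14 (-2.58, adjusted p = 0.0267); its probe holds GTGTGT, a letter class whose other calls were nearly all higher with LPS. Stat2 differed by -1.28 (adjusted p = 0.0737). Irf7, the interferon-induced regulator of interferon genes, read 15.47 and 15.59 against 16.08, 16.06 and 14.89, with overlapping groups (-0.15, adjusted p = 0.913). Among the 13 cytosolic sensors the median was -0.77. Of these sensors, 10 had non-overlapping groups with the higher level under Poly(I:C), where 32.0% of all probes did not overlap. The only call was Trim25 (1.59 higher with LPS), on a probe with a TG repeat. A Trim25 probe without a run went the other way and was not called (-0.79, adjusted p = 0.349). It read 15.14 and 15.51 with LPS against 16.37, 16.30 and 15.68 with Poly(I:C). When Poly(I:C) replicate 3 was left out, 1 sensor was called higher with LPS and 2 with Poly(I:C). The RNA sensors Ifih1 and Ddx58 differed by -1.13 and -0.94 (adjusted p = 0.139 and 0.126).

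Called genes higher with Poly(I:C) outside these lists included Klf8, a Krüppel-like factor. It read 7.17 and 6.27 with LPS, near the 6.68 to 7.09 of naive cells, against 10.49, 10.47 and 10.34 (-3.71, SE 0.30, adjusted p = 0.0266). Trim30c and Trim30b, close relatives of the interferon-induced Trim30a whose probes may share signal, differed by -2.91 (adjusted p = 0.0267) and by at least 9.26-fold (adjusted p = 0.0474). Kif5c, a kinesin heavy chain, read 5.10 and 4.5 against 7.40, 7.34 and 8.20, and 7.11 to 8.01 in naive cells, so that the LPS level lay below naive (-2.85, adjusted p = 0.0426). Rcbtb1 (-2.46), the serine protease Htra4 (-2.70) and Gls2, a glutaminase (at least 4.5-fold), were also called.

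Some genes of other lists had large differences that did not pass the test over 5 arrays. Il12b, the shared chain of IL-12 and IL-23, read 7.39 and 7.65 with LPS against 11.16, 10.45 and 13.81 with Poly(I:C) (-4.28, SE 0.99, adjusted p = 0.155). Il15, a growth factor of natural killer cells, read 8.62 and 8.86 against 10.77, 10.75 and 10.03 (-1.77, adjusted p = 0.0747). Tnfsf10, the death ligand TRAIL, read 6.72 and 7.27 against 8.71, 8.73 and 10.71 (-2.39, adjusted p = 0.227). The groups of these 3 genes did not overlap, and without Poly(I:C) replicate 3 the adjusted p were 0.0104, 0.0104 and 0.0258. Ch25h, which makes the antiviral 25-hydroxycholesterol, read 10.13 and 7.62 against 13.82, 12.41 and 14.16 (-4.59, adjusted p = 0.107). Cd40 and Cd83, activation markers of antigen-presenting cells, differed by -2.55 (probe with GTGTGT) and -2.71, with adjusted p of 0.0611 and 0.0824.

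Of 16 genes of class II and costimulation 0 were called with 5 arrays and 8 without Poly(I:C) replicate 3, all higher with Poly(I:C), and the medians were -0.98 and -1.43. H2-Eb1, a class II chain, read 11.02 and 10.58 with LPS, 14.84 and 14.71 on Poly(I:C) replicates 1 and 2, and 11.18 on replicate 3. H2-Aa read 9.36 and 8.95 against 12.66, 12.37 and 9.41, H2-Ab1 13.91 and 13.73 against 15.96, 15.94 and 12.56, and Cd74, the invariant chain, 12.51 and 12.59 against 14.92, 14.72 and 11.96. In all 4 genes replicate 3 lay near or below the LPS arrays. Ccr7, a homing receptor of activated dendritic cells, read 10.49 and 10.85 against 11.82, 11.82 and 4.94. Of 19 genes of MHC class I and the immunoproteasome 0 and 8 were called in the 2 fits, with a median of -0.72, and Tap1 and Psmb9 differed by -0.91 and -0.96 (adjusted p = 0.496 and 0.392).

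The same array decided other genes as well. Marco, a scavenger receptor, read 18.61 and 17.42 with LPS, 12.18 and 12.22 on Poly(I:C) replicates 1 and 2 and 18.39 on replicate 3, on a probe with a TG repeat. In naive cells it read 9.99, 11.42 and, on slide 3, 17.97. Emr1, which encodes the macrophage marker F4/80, read 16.77 and 16.66 with LPS against 14.39, 14.03 and 16.87. Socs3, a feedback inhibitor of cytokine receptors, read 14.96 and 14.64 against 12.21, 11.43 and 14.90, and Irak3, a brake on MyD88 signalling, 13.56 and 13.16 against 11, 11.27 and 12.86. For Tnf the values were 13.84 and 13.94 against 13.17, 12.63 and 15.56, and for Il6 11.19 and 10.92 against 10.19, 10.66 and 14.09. In both cytokines replicate 3 was above and replicates 1 and 2 below the LPS arrays (adjusted p = 0.973 and 0.879). Tnf also differed among naive cells, at 9.0, 9.53 and, on slide 3, 13.44.

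**Figure D5:**
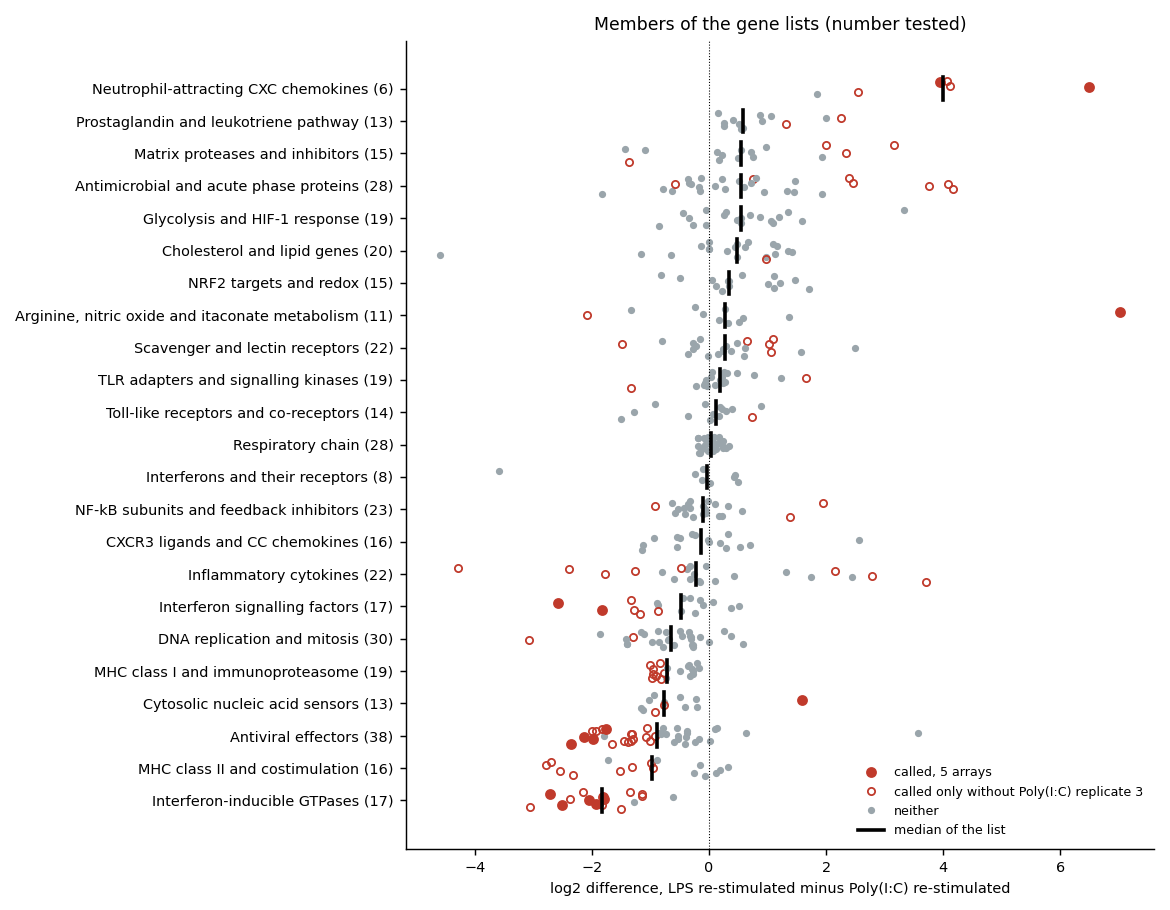
Log2 difference (LPS minus Poly(I:C)) of each tested member of 23 gene lists, with the number tested in brackets and black bars for list medians. Filled red points were called over 5 arrays, and open red points only without Poly(I:C) replicate 3. The medians ran from -1.83 for the interferon-inducible GTPases to 4.00 for the CXC chemokines.

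Several lists had positive medians and 0 calls over 5 arrays. Matrix proteases and inhibitors (15 tested) had a median of 0.55. Without Poly(I:C) replicate 3, 1 was called higher with Poly(I:C) and 3 with LPS, namely Timp1, an inhibitor of metalloproteases (10.71 and 11.03 against 7.54, 6.77 and 8.81), Mmp8 (2.33) and Mmp13 (2.01). Mmp8, also a neutrophil marker, read 11.69 and 12.15 against 9.93, 10.42 and 8.42. In naive cells it read 11.57, 11.47 and, on slide 3, 9.06. Antimicrobial and acute phase proteins (28 tested) had a median of 0.55 with 5 arrays and -0.16 without replicate 3, where 6 were called higher with LPS and 1 with Poly(I:C). Among the 6 were Lcn2, which binds bacterial siderophores (16.61 and 16.43 against 10.96, 12.09 and 14.29), Saa2, an acute phase protein (7.47 and 7.79 against 2.39, 2.25 and 5.74), and Hp, haptoglobin (2.38). S100a9, a calcium-binding protein abundant in neutrophils, read 15.10 and 14.75 against 15.48, 16.41 and 7.08 and was called in neither fit.

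Of 19 glycolysis and HIF-1 genes, 11 had non-overlapping groups with the higher level under LPS and 2 with Poly(I:C), the median was 0.54, and 0 were called with or without Poly(I:C) replicate 3. Egln3, an oxygen-sensing hydroxylase, read 9.82 and 8.99 against 5.02, 7.44 and 5.79 (3.32, adjusted p = 0.142), and Bnip3, a mitophagy receptor, differed by 1.59 (adjusted p = 0.156). Of 20 cholesterol and lipid genes, 11 had non-overlapping groups higher with LPS and 3 with Poly(I:C), among them Ch25h with the largest difference of the list (-4.59), where 32.0% of all probes did not overlap. The median was 0.48, and 0 and 1 were called in the 2 fits, the latter higher with LPS. Hmgcs1, an enzyme of cholesterol synthesis, differed by 1.16 (adjusted p = 0.126). Alox5ap, which presents substrate for leukotriene synthesis, differed by 1.32 (adjusted p = 0.0725) among 13 prostaglandin and leukotriene genes with a median of 0.57, of which 0 were called over 5 arrays and 2, higher with LPS, without Poly(I:C) replicate 3. Genes of DNA replication and mitosis (30 tested) had a median of -0.64 and 0 calls over 5 arrays. Without replicate 3, 2 were called higher with Poly(I:C), as were 833 of all 24814 probes. The largest difference was that of Ccne1, a cyclin (-3.08, adjusted p = 0.133).

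Genes of the signalling machinery itself, and those of the respiratory chain, lay close to the overall median. The 14 Toll-like receptors and co-receptors had a median of 0.11, the 19 adapters and kinases 0.19, the 23 NF-κB subunits and feedback inhibitors -0.09 and the 28 respiratory chain genes 0.04, all with 0 calls over 5 arrays. Leaving out Poly(I:C) replicate 3 gave calls higher with LPS and with Poly(I:C) of 1 and 0, 1 and 1, 2 and 1, and 0 and 0. Over all 24814 probes of that fit the counts were 728 and 833. Tlr4 read 10.40 and 11.02 against 10.20, 10.53 and 10.82. Tlr3, the receptor of Poly(I:C), read 5.92 and 5.34 against 7.48, 6.97 and 6.97 (-1.51, adjusted p = 0.102), and Tlr2 14.11 and 13.40 against 15.30, 14.91 and 14.92 (-1.29, adjusted p = 0.142). Ripk2, a kinase downstream of NOD receptors, differed by -1.33 (adjusted p = 0.0739). Ccl5, a chemokine induced by both ligands, read 18.72 on both LPS arrays and 18.82, 18.82 and 18.55 with Poly(I:C), at the top of the range of these arrays (-0.01, 95% interval -0.48 to 0.46). The 15 NRF2 targets and the 22 scavenger and lectin receptors had medians of 0.34 and 0.27 and 0 calls. Without replicate 3, 0 NRF2 targets were called, and 4 receptors higher with LPS and 1 with Poly(I:C). The 16 CXCR3 ligands and CC chemokines had 0 calls in both fits and a median of -0.13.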

How the data were processed

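The authors deposited scanner intensities of 27 arrays (1-colour Agilent 8 x 60K, Cy3) and log2 values of 25 arrays, made per the labels with limma and RMA and, per their methods, quantile normalization. All columns matched a sample (0 left over). The deposited log2 values were used as given. Intensity files served for background flags, probe names, positions (mm9), slides and the alternatives. Probes that passed the background flag on 2 or more arrays of 1 group were fitted with limma 3.58.1 in R 4.3.3, without a block, with Benjamini-Hochberg adjustment. Every adjusted p is from limma, and p-values measure the spread between these cultures only. The number of arrays, 2 and 3, limits the precision. For "at least" folds, readings of an undetected group were raised to the lowest signal well above background on that array, where they lay below it. Readings above it were kept. The Serpinh1 readings of 2.67 and 2.64 were above it (2.15 and 2.45), so its fold is that of the readings as they stand. The 12 largest called differences with a gene symbol in each direction and members of gene lists could be named, by the probe of highest mean. Members and lists were chosen with earlier results of these data known, and letter classes after seeing the differences. Scripts were tested on simulated data. Some genes and sequences are not reported here.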

Additional observations from a re-analysis of the deposited data

Results flagged for a closer look

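The LPS re-stimulated replicate 3 array, which has intensities but no deposited log2 value, was normalized again together with the other 26 arrays. On it 92.4% of probes were well above background, against 43.6% to 48.6% on the 5 arrays compared. Signals above those of the naive arrays were found there for Arg1, Cxcl5 and Il1b. The same held for the repeat probe of Elavl4 (11.46) and the G run probe of Serpinh1 (6.66), against at most 9.31 and 5.46 on naive arrays. Arg1 read 7.37, Cxcl5 3.63 and Il1b 14.92, while the naive arrays reached at most 3.45, 2.71 and 6.93 in the same normalization. The other LPS arrays read 11.66 and 11.58 for Arg1 and 8.99 and 10.23 for Cxcl5. Cxcl5 on this array lay within the range of the Poly(I:C) re-stimulated arrays, 2.99 to 3.84. Ifit2 read 10.25, against 12.83 and 12.72 on the other LPS arrays and 11.26, 11.44 and 9.99 in naive cells, and Serpinh1 6.66 against 2.95 and 2.92.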

How the results depend on the processing

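Counts are given as probes higher with LPS and higher with Poly(I:C), against 141 and 105. They were 142 and 101 with values made again from the intensities, 196 and 119 after normexp correction, and 162 and 137 after scaling to the 75th percentile. Median scaling gave 184 and 392, moved the median of all probes to -0.14 and the LPS share of calls from 57.3% to 31.9%. A stricter filter gave 173 and 163, a slide random block 260 and 274, an intensity trend 215 and 218, a fit of the 4 re-stimulated groups 72 and 252 and of all 9 groups 272 and 269. Counts were 0 and 0 with no filter (4563 unadjusted p under 0.05), with LPS replicate 3 included (1573), and with letter-run probes left out, a setting chosen after seeing the data (2821). Leaving out each array in turn gave 0 to 728 and 0 to 833.

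With the replicate block, in which the replicate number is also the slide, the counts were 703 and 849. The numbers were not shown to pair the cultures, since the deviations of same-numbered arrays correlated at -0.06 and 0.29 in only 2 pairs. Slide 3 holds no LPS array of the comparison, so that array adds nothing to the blocked difference. Of the 54 called named genes, 0 lost their call under the block, 5 with the 75th percentile, 21 after normexp, 21 in the fit of the 4 re-stimulated groups, 23 in that of all 9 groups, and 2 with the trend. Without Poly(I:C) replicate 1, 39 were lost, and all 54 with no filter, with LPS replicate 3 included, or without LPS replicate 1, LPS replicate 2 or Poly(I:C) replicate 2. Of all 246 calls, 87 and 94 were shared with the fits of 4 and 9 groups.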
